A study of Mus musculus with 3 samples.

Results

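The nuclear genes of the mitochondrial respiratory chain and of ATP synthase were followed in Cyp27b1-knockout mpkDCT cells, a mouse kidney line that derives from distal convoluted tubule. Members were taken by name from the scanner files: all non-control spots whose gene name began with Ndufa, Ndufb, Ndufc, Ndufs, Ndufv, Uqcr, Cox4 to Cox8 or Atp5, or was Sdha to Sdhd, Cyc1 or Cycs, each gene read from its brightest probe without an outlier flag. The names gave 94 genes of the 37074 on the array, from 147 probes. They comprised 38 genes of complex I subunits, 7 complex I assembly factors, 4 genes of complex II, 9 of complex III, the somatic cytochrome c gene, 17 of complex IV and 18 of complex V.

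Cyp27b1 encodes the hydroxylase that converts calcidiol into calcitriol, the ligand of the vitamin D receptor. The groups were cells given calcitriol, 1,25(OH)2D3, at 1e-07 M, cells given calcidiol, 25(OH)D3, at 1e-07 M, and cells given vehicle, each for 24 h and each measured on 1 array. All 3 groups carried the knockout and were kept in 2% charcoal-stripped serum without phenol red, and the sources used here do not say whether the line is 1 clone. The titles of all 3 samples also share the tag siCT, whose meaning is not given there. For the calcidiol sample the description reads 25(OH)2D3 and the treatment tag 25(OH)D3, and the tag was followed. With 1 array per group no test was possible, so every difference below is a description of 3 cultures and their arrays, and size thresholds of 2-fold and 1.5-fold were used in place of a test. In bulk RNA, fewer cells of a type and less RNA per cell cannot be told apart.

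The respiratory chain passes electrons from NADH through complex I, or from succinate through complex II, to ubiquinone, then through complex III, cytochrome c and complex IV to oxygen. Complexes I, III and IV pump protons across the inner membrane, and ATP synthase, complex V, lets them flow back to make ATP. The distal convoluted tubule is rich in mitochondria, which supply the ATP used by its sodium pump. Most subunits are encoded in the nucleus and a few in mitochondrial DNA, so the complexes combine products of both genomes.

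Signals are the processed spot intensities of the scanner files, divided by each array's 75th percentile and multiplied by the mean of the 3 percentiles, and differences are given on the log2 scale. They compare 1 probe between arrays, and levels of different probes are not compared. Of 94 genes, 90 were well above background on all 3 arrays and 4 on none, so none had only a bound. The error stored with the scanner signals gave 0.20 for the median difference of a member, a size set mostly by a fixed multiplicative error of 0.1 in the file headers. A measured spread came from 285 probes printed 10 times on each array, whose spot-wise differences had a median SD of 0.106 for calcitriol minus vehicle, 0.0919 for calcidiol minus vehicle and 0.120 for calcitriol minus calcidiol. Both leave out variation between cultures.

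Cell type markers and array position are given as background to the results. Of 10 distal convoluted tubule markers, 8 were below detection on all 3 arrays (not well above background), among them Slc12a3, the thiazide-sensitive cotransporter, while Wnk1 was detected on all 3 arrays and Pvalb on 2. The epithelial genes Cdh16 and Pax8 were detected on all 3 arrays, and Cdh1, Epcam, Krt8 and Krt18 on none. Against vehicle, Cdh16 was at -0.50 with calcitriol and -0.36 with calcidiol, and Pax8 at 0.009 and -0.04. Of 4 fibroblast markers, Col1a1 and Dcn were measured, with a summed scaled signal of 136 for calcitriol, 232 for calcidiol and 420 for vehicle, and Col1a2 and Pdgfra were below detection. Of 5 proximal tubule markers, 3 were measured and went different ways: Lrp2 was at 1.37 with calcitriol and 0.88 with calcidiol against vehicle on the log2 scale, Aqp1 at -0.69 and -0.61, and Cubn at -0.18 and -0.02. Of 3 endothelial markers only Kdr was measured, at 67.1 with calcitriol, 97.5 with calcidiol and 122 with vehicle. Of 4 principal cell markers only Aqp2 was measured, at -0.48 with calcitriol and -0.46 with calcidiol against vehicle, and both leukocyte markers were, Cd68 at -0.31 and -0.04 and Ptprc at 0.04 and 0.27. The part of these shifts in the results was not tested. The Cyp27b1 probe was below detection on all 3 arrays and does not check the knockout. Spot positions are given as the row or column counted from the nearest array edge, 1 being outermost. In the outermost 6 rows and columns of the array, 5.33% of genes were 2-fold apart between calcitriol and vehicle, against 2.33% further in, and 13 measured members lay there.

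As a set, the respiratory genes differed little between treatments. Between calcitriol and vehicle the median difference of the 90 measured members was -0.06, against -0.005 over all 16671 genes measured on both arrays, and 59 of 90 members (65.6%) were below 0, against 50.8% of all genes. No member was at least 2-fold higher, where 0.966% of all genes were, and 1, Cox6c, was at least 2-fold lower, where 1.63% of all genes were. At 1.5-fold, 0 members were higher and 4 were lower (Cox6c, Cox6a2, Cox6b2 and Ndufv2), beside 3.38% and 6.26% of all genes. The number of members past either threshold thus lay near or under the background. Centring the arrays on their median moved the median of all genes to 0.12 and that of the members to 0.07, so only the gap between them, -0.05, carries over between scalings. That gap ran from -0.09 to -0.03 and stayed below 0 in all 13 alternatives tried.

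Between calcidiol and vehicle the members' median was 0.003, against -0.010 over 16664 genes. Of 90 members 42 (46.7%) were below 0, beside 52.3% of all genes. None was 2-fold apart in either direction, where 0.852% of all genes were higher and 0.144% lower. At 1.5-fold, Cox6a2 was higher and none was lower, beside 2.84% and 1.33% of all genes. The gap to all genes, 0.01, ran from -0.03 to 0.03 and turned below 0 in 5 of 13 alternatives.

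The compounds, of which calcitriol carries an additional hydroxyl group, were also set side by side at equal dose and time. The members' median was -0.03 for calcitriol minus calcidiol, against 0.003 over 16517 genes, and 51 of 90 (56.7%) were below 0, beside 49.4% of all genes. No member was 2-fold higher with calcitriol, where 0.466% of all genes were, and 2, Cox6a2 and Cox6c, were 2-fold lower, where 1.4% were. The same 2 genes were the members past 1.5-fold, all lower, beside 2.16% of all genes higher and 5.55% lower. The gap to all genes was -0.03 and kept its sign in all 13 alternatives, from -0.07 to -0.009, and with arrays centred on their medians the value for all genes was 0.19. All 3 comparisons share arrays in pairs and are not independent.

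The members' values lay closer to 0 than those of all genes when probes of every brightness were counted, and less clearly so among bright probes. Between calcitriol and vehicle, 78.9% of members lay within 1.2-fold, against 65.9% of all genes, and the median size of the difference was 0.11 against 0.18. Between calcidiol and vehicle these shares were 94.4% of members and 78.3% of all genes, with median sizes of 0.069 and 0.129. Between calcitriol and calcidiol they were 76.7% and 68.4%, with median sizes of 0.13 and 0.17. Most member probes were bright, and 76 of 90 had signals in the range above the 75th percentile of measured genes. Within that range the median size was 0.105 for members and 0.131 for all genes between calcitriol and vehicle, 0.0636 and 0.0935 between calcidiol and vehicle, and 0.120 and 0.126 between calcitriol and calcidiol. The shares within 1.2-fold in that range were 82.9% of members and 79.5% of all genes between calcitriol and vehicle, 98.7% and 90.1% between calcidiol and vehicle, and 77.6% and 79.8% between calcitriol and calcidiol, where the members' share was thus the smaller.

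**Figure D1:**
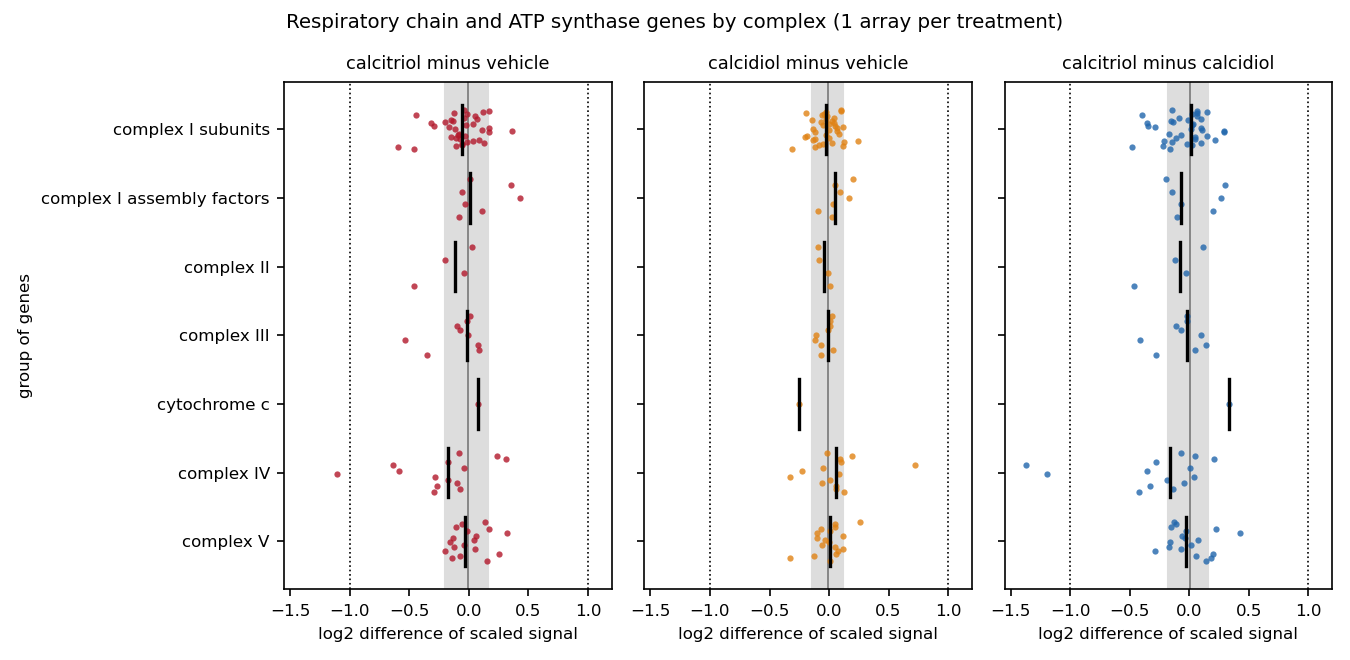
Log2 difference of scaled signal (x axis) for each measured gene (points) in 7 groups of genes (y axis), in 3 panels: calcitriol minus vehicle, calcidiol minus vehicle and calcitriol minus calcidiol. Short black lines are group medians, the grey band spans the middle 50% of all genes with their median as a grey line, and dotted lines mark 2-fold. Most points lie in or near the band, and the complex IV median is at -0.18 in the first panel.

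A feature that the name rule did not use is shared promoter sequence. Promoters from RefSeq on GRCm38.p6, 250 bases before to 50 after the annotated start, were matched for 76 members. They were searched on both strands for the exact letters of 4 motifs of factors known to act on respiratory genes: GCATGCGC for NRF1, CCGGAAGT for GABPA and other ETS factors, AAGATGGC for YY1 and TCAAGGTCA for ERRA, the estrogen-related receptor alpha. The NRF1 letters, which can match on both strands at overlapping positions, were in 13 of 76 member promoters (17.1%) and in 2.80% of 27025 promoters of all genes. The YY1 letters were in 10 (13.2%), against 2.88% of all promoters, the ETS letters in 5 (6.58%), against 4%, and the ERRA letters in 2 (2.63%), against 0.407%. At least 1 of the 4 motifs was in 29 member promoters (38.2%) and in 9.55% of all. A match describes letters in this window and not binding, and a promoter without a match lacks only these letters in this window.

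Examples are shown with the matched letters in capitals. They are Cycs and Cox6a1, each with the NRF1 letters, Uqcr11, with the ETS and then the NRF1 letters, and Ndufs4, with the YY1 letters just after the start. Cycs lies at chr6:50566520-50566819 on the minus strand, Cox6a1 at chr5:115348909-115349208 on the minus strand, Uqcr11 at chr10:80406772-80407071 on the minus strand and Ndufs4 at chr13:114388045-114388344 on the minus strand. Each runs 5′ to 3′ along its gene.
Cycs: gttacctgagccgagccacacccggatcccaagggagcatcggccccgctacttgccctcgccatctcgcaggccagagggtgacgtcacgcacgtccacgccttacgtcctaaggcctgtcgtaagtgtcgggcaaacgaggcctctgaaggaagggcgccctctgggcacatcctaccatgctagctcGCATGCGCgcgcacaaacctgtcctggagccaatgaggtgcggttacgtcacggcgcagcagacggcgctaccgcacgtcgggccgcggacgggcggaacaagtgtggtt
Cox6a1: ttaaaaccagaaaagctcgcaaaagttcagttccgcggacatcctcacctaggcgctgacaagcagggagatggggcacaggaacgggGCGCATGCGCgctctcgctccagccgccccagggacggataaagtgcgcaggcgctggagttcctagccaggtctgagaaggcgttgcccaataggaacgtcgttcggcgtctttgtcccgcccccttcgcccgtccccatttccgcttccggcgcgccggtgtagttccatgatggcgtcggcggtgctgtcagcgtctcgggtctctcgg
Uqcr11: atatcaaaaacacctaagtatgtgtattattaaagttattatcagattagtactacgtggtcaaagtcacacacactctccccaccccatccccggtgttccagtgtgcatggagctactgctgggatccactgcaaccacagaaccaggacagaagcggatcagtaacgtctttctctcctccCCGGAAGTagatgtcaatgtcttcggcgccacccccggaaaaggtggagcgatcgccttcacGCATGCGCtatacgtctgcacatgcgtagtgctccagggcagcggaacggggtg
Ndufs4: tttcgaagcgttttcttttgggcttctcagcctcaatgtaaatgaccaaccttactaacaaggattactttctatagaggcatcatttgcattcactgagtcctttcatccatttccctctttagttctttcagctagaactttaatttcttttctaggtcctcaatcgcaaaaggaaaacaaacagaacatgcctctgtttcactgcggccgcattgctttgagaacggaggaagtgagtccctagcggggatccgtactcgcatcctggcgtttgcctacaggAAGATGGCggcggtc

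Complex I is the entry point for NADH. Its 37 measured subunit genes had a median of -0.06 for calcitriol minus vehicle, with 25 (67.6%) below 0, beside 50.8% of all genes. For calcidiol minus vehicle the median was -0.02, with 20 (54.1%) below 0, beside 52.3% of all genes. For calcitriol minus calcidiol it was 0.02, with 18 (48.6%) below 0, beside 49.4% of all genes. Only Ndufv2 passed 1.5-fold, lower with calcitriol than with vehicle, where 6.26% of all genes were. Ndufa4l2, a paralog induced by hypoxia in other cells, was detected on none of the arrays.

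Ndufv2 encodes an iron-sulfur protein of the module that takes up electrons from NADH. Its probe (chromosome 17, 66428794 to 66428853, mm9) read 3774 with calcitriol, 5250 with calcidiol and 5691 with vehicle. The calcitriol array stood alone as low, 1.51-fold lower than vehicle (log2 difference -0.59) and at -0.48 against calcidiol, and calcidiol was at -0.12 against vehicle. The difference of calcitriol from vehicle was between -0.63 and -0.47 over the settings that measured the gene, and under 1.5-fold with centring and with normexp and quantile normalisation. Without the outermost 24 rows and columns Ndufv2 has no value. Its other probe was not well above background. Other core subunits of that module were nearer to 0: Ndufv1, which binds NADH and flavin, read 11984 with calcitriol, 13940 with calcidiol and 12889 with vehicle, and Ndufs1, which holds several iron-sulfur clusters, read 6638, 7176 and 7158 in the same order. Neither was as much as 1.2-fold from vehicle on its brightest probe, but the second, dim Ndufs1 probe gave 0.48 with calcitriol against vehicle, opposite to the -0.11 of the first, which lies 2 from the edge.

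Other subunits varied by less. Ndufa2, an accessory subunit of the same arm, read 12841 with calcitriol, 16853 with calcidiol and 17515 with vehicle, a difference from vehicle of -0.45 with calcitriol and -0.06 with calcidiol. Ndufv3, a small accessory subunit, was dim, at 35.2 with calcitriol, 39.3 with calcidiol and 48.6 with vehicle, and had the lowest calcidiol difference of the subunits, -0.31. Both were lowest on the calcitriol array. Ndufa9, which lies near the ubiquinone site, was at -0.32 with calcitriol and 0.04 with calcidiol against vehicle. Ndufb6, of the membrane arm, was the highest subunit with calcitriol, at 6543 against 5348 with calcidiol and 5102 with vehicle, a difference from vehicle of 0.36. It was also the highest in calcitriol minus calcidiol, at 0.29, but that difference ran from -0.15 to 0.48 over the settings that measured it and was below 0 with normexp background correction and quantile normalisation, under which calcitriol minus vehicle was 0.075. The Ndufb6 spot lies 4 from the array edge, where neighbouring spots had a median of -0.13 for calcitriol minus vehicle. Ndufs4, an accessory subunit needed for a stable complex, was the highest with calcidiol, at 0.25 against vehicle, from 6641 with calcidiol and 5597 with vehicle, and was at 0.03 with calcitriol. Ndufab1, the mitochondrial acyl carrier protein, was within 0.04 of 0 in all 3 comparisons on its brightest probe. Its other, dimmer probe was at 0.25 with calcitriol and -0.13 with calcidiol against vehicle, and at 0.38 between the compounds. Ndufa4, once assigned to complex I and now counted with complex IV, was at -0.04 with calcitriol and 0.04 with calcidiol against vehicle. The other 27 complex I subunit genes lay between -0.30 and 0.17 with calcitriol and between -0.20 and 0.13 with calcidiol. Of these, 18 and 17 were below 0, beside 50.8% and 52.3% of all genes. Between the compounds they lay between -0.35 and 0.29, with 10 below 0, beside 49.4% of all genes.

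The 7 complex I assembly factors, which build the complex and are not part of it, had medians of 0.01 with calcitriol and 0.05 with calcidiol against vehicle, and -0.07 in calcitriol minus calcidiol. Ndufaf4 had the highest calcitriol difference of all members: it read 502 with calcitriol, 417 with calcidiol and 372 with vehicle, which is 1.35-fold higher with calcitriol (0.43) and 0.16 with calcidiol. The order was calcitriol, calcidiol, vehicle. Ndufaf2, a further assembly factor, read 1584 with calcitriol, 1288 with calcidiol and 1242 with vehicle, and was the highest of the group in calcitriol minus calcidiol, at 0.30. Ndufaf1 was the highest with calcidiol against vehicle, at 0.20, and the lowest in calcitriol minus calcidiol, at -0.19. Ndufaf7, which methylates a core subunit, was the lowest with calcitriol, at -0.08, and Ndufaf6 was the lowest with calcidiol, at -0.09. These ranks are those of the brightest probes. Against vehicle, the other Ndufaf7 probe was at 0.06 with calcitriol and -0.06 with calcidiol, and a dim Ndufaf5 probe at -0.37 and -0.18. Other Ndufaf6 probes were at 0.04 and -0.37 with calcitriol and at -0.09 and -0.50 with calcidiol, the second of them dim.

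Complex II, succinate dehydrogenase, joins the chain to the tricarboxylic acid cycle. Its 4 genes had medians of -0.12 with calcitriol and -0.05 with calcidiol against vehicle and -0.07 in calcitriol minus calcidiol. Sdhd, a membrane anchor, read 6439 with calcitriol, 8879 with calcidiol and 8852 with vehicle, so the calcitriol array alone was low, at -0.46 against both other arrays. The Sdhd spot lies 3 from the array edge, and the 42 neighbouring spots had a median of -0.07. Sdha, the flavoprotein that oxidises succinate, was at 0.03 with calcitriol and -0.09 with calcidiol, and Sdhc, the other anchor, at -0.04 and -0.009. Sdhb, the iron-sulfur subunit, read 9730 with calcitriol, 10568 with calcidiol and 11188 with vehicle on its brightest probe, a calcitriol difference of -0.20. Its other probe, 3 from the edge, read 4921, 3387 and 3173 in the same order, a difference of 0.63, so the Sdhb probes disagreed in direction.

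Complex III carries electrons from ubiquinol to cytochrome c. The medians of its 9 genes were -0.01 with calcitriol, -0.007 with calcidiol and -0.02 in calcitriol minus calcidiol. Uqcrc2, a core protein, was the lowest in all 3 comparisons. It read 4885 with calcitriol, 6513 with calcidiol and 7082 with vehicle, or -0.54 with calcitriol and -0.12 with calcidiol against vehicle and -0.41 between the compounds. Its spot lies 4 from the edge, and 43 neighbouring spots had a median of -0.21 for calcitriol minus vehicle, so the spots around it were low too, and their part in its value was not tested. Uqcrq, a small subunit bound near cytochrome b, read 28124 with calcitriol, 34200 with calcidiol and 35869 with vehicle, a difference of -0.35 with calcitriol.

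The electron-carrying subunits of complex III showed no such gap. Cyc1, the cytochrome c1 gene, read 16111 with calcitriol, 16272 with calcidiol and 15976 with vehicle, within 0.03 of 0 in all comparisons. Uqcrfs1, which holds the Rieske iron-sulfur cluster, differed from vehicle by 0.08 with calcitriol and by -0.06 with calcidiol, and was the highest in calcitriol minus calcidiol, at 0.14. Uqcrc1, the other core protein, was at -0.007 and -0.11. Uqcrh, the hinge protein that helps dock cytochrome c, was the highest against vehicle, at 0.09 with calcitriol and 0.04 with calcidiol. The other genes, Uqcr10, Uqcr11 and Uqcrb, lay between -0.10 and -0.01 with calcitriol and within 0.007 of 0 with calcidiol on their brightest probes. A further Uqcrb probe, 51 from the edge, was at -0.49 with calcitriol and 0.17 with calcidiol against vehicle. It was at -0.66 between the compounds, and a dim Uqcrb probe was at -0.02 with calcitriol against vehicle.

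Cycs encodes cytochrome c, the mobile carrier between complexes III and IV, and its promoter is printed above. Its brightest probe (chromosome 6, 50515092 to 50515151, mm9) read 14981 with calcitriol, 11901 with calcidiol and 14203 with vehicle. The calcidiol array was the low one, at -0.26 against vehicle, while calcitriol was at 0.08 against vehicle and 0.33 against calcidiol. The other Cycs probe read 3398 with calcitriol, 2578 with calcidiol and 2939 with vehicle, the same order, with 0.21, -0.19 and 0.40. The difference between the compounds kept its sign, from 0.14 to 0.52, in every setting that measured Cycs, which is all but the one without the outermost 24 rows and columns, and calcidiol minus vehicle did too, from -0.32 to -0.15.

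Complex IV, cytochrome c oxidase, had the lowest median of the groups with calcitriol. Of its 14 measured genes, 12 (85.7%) were below 0 for calcitriol minus vehicle, beside 50.8% of all genes, and as many were below the median of all genes. The complex IV median was -0.18, or -0.17 relative to all genes. That gap was between -0.24 and -0.12 in the 13 alternatives. The count below 0 depends on the scaling: with arrays centred on their medians the complex IV median was -0.05, and Cox4i1, Cox6b1, Cox7a2l and Cox7c turned above 0. With calcidiol 5 of 14 (35.7%) were below 0 against vehicle, beside 52.3% of all genes, and the median was 0.06. The gap to all genes was 0.07 there, ran from -0.008 to 0.08 and turned below 0 in 1 of 13 alternatives. In calcitriol minus calcidiol 10 of 14 (71.4%) were below 0, beside 49.4% of all genes. The median was -0.16, and the gap to all genes was between -0.22 and -0.07.

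Cox6c, a small accessory subunit, was the member farthest from vehicle. Its single probe (chromosome 15, 35861751 to 35861810, mm9) read 6920 with calcitriol, 15810 with calcidiol and 14900 with vehicle. Calcitriol stood apart from the other 2 arrays, 2.15-fold lower than vehicle (-1.11) and 2.28-fold lower than calcidiol (-1.19), and calcidiol was at 0.09 against vehicle. The spot lies 4 from the array edge. Its 34 neighbouring spots had a median of -0.08 for calcitriol minus vehicle, and 1 of them was 2-fold lower. Over the scalings and filters that kept the spot the difference was between -1.15 and -0.98, and the last, with arrays centred on the median, is under 2-fold. Without the outermost 6 rows and columns Cox6c has no value.

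**Figure D2:**
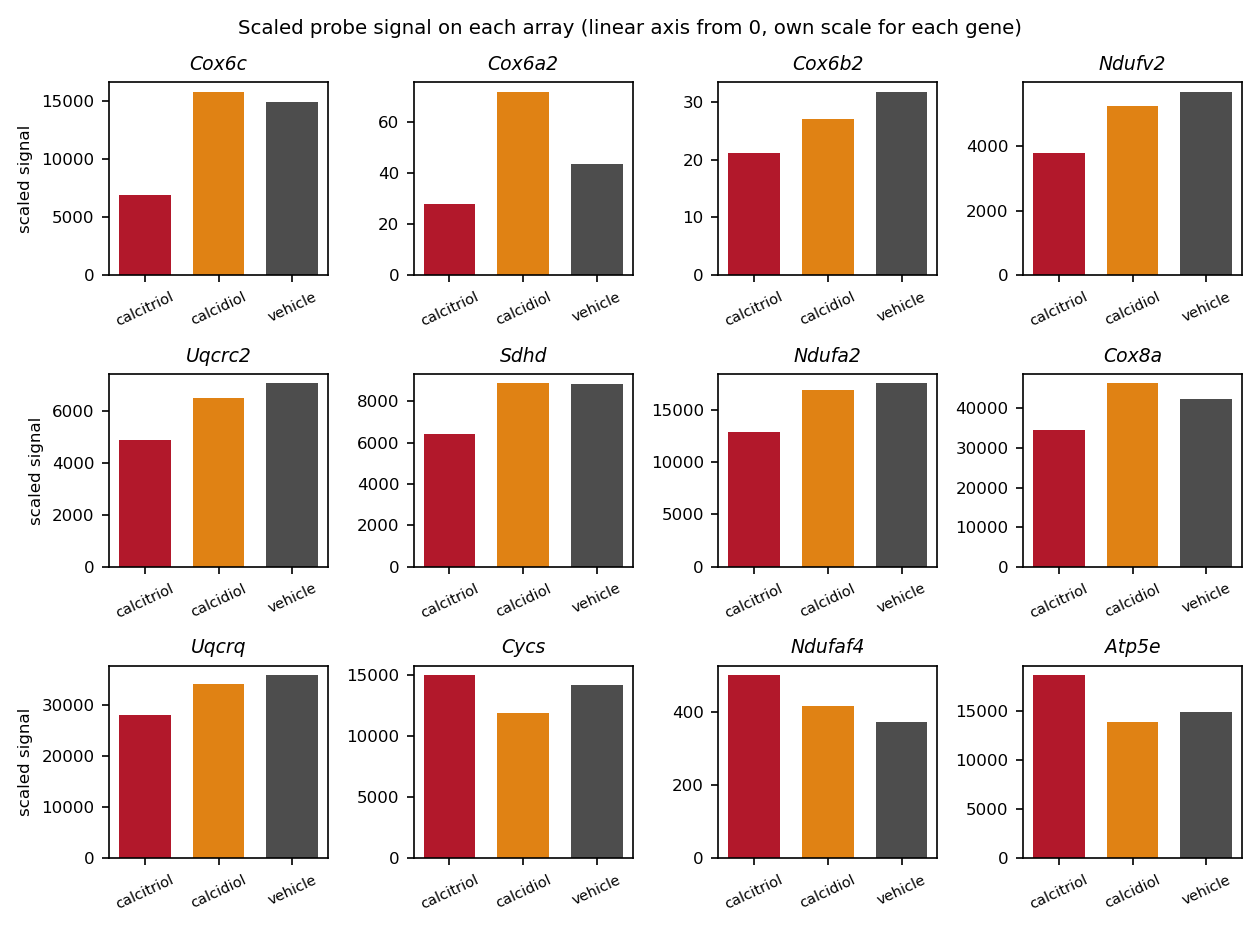
Scaled signal (y axis, linear from 0, own scale for each gene) of 12 genes on the calcitriol, calcidiol and vehicle arrays (x axis, 1 bar per array, no replicates). Cox6c stands at 6920 with calcitriol against 15810 and 14900 on the other arrays, and Ndufaf4 and Atp5e are highest with calcitriol.

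Several complex IV subunits exist as tissue isoforms. Cox6a2, the heart and skeletal muscle form of subunit 6a, was dim: it read 27.8 with calcitriol, 71.7 with calcidiol and 43.3 with vehicle, where the lowest signal well above background, before scaling, was 13.8, 17.9 and 13.4. It was 1.56-fold lower with calcitriol than with vehicle (-0.64), 1.65-fold higher with calcidiol than with vehicle (0.73) and 2.58-fold lower with calcitriol than with calcidiol (-1.37). These sizes depend on how dim signals are handled. Over the settings that measured Cox6a2, which excludes the 25th and 75th percentile filters on signal, calcitriol minus vehicle ran from -0.64 to -0.18, calcidiol minus vehicle from 0.30 to 0.75 and calcitriol minus calcidiol from -1.37 to -0.48. Cox6a1, the broadly expressed form, read 71348 with calcitriol, 86431 with calcidiol and 80518 with vehicle, so both isoforms had the order calcidiol, vehicle, calcitriol, with Cox6a1 at -0.17 and 0.10 against vehicle. Cox6b2, a testis form of subunit 6b, was also dim, at 21.2 with calcitriol, 27.1 with calcidiol and 31.8 with vehicle, or 1.5-fold lower with calcitriol (-0.59). Over the settings that measured Cox6b2 this difference ran from -0.59 to -0.12. For both genes calcitriol minus vehicle was under 1.5-fold with centring, quantile, cyclic loess or normexp normalisation, with an offset of 32 and in the value table. Its broad counterpart Cox6b1 was at -0.04 with calcitriol and -0.05 with calcidiol.

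Cox7a1, the muscle form of subunit 7a, read 1840 with calcitriol, 1785 with calcidiol and 2237 with vehicle, and was the lowest complex IV gene with calcidiol, at -0.33, and at -0.28 with calcitriol. Both hormone arrays were below vehicle. Cox7a2, its broad counterpart, was at -0.18 with calcitriol and 0.006 with calcidiol, and Cox7a2l, which joins complexes III and IV in supercomplexes, at -0.10 and -0.06. Cox4i2, the form of subunit 4 found in lung and induced by low oxygen, read 143 with calcitriol, 139 with calcidiol and 121 with vehicle, or 0.24 and 0.19 above vehicle. Cox4i1, the broad form, read 43952, 45957 and 46498 in the same order, or -0.08 and -0.02.

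Of the remaining complex IV genes, Cox8a, the broad form of subunit 8, read 34598 with calcitriol, 46305 with calcidiol and 42468 with vehicle, or -0.30 and 0.12 against vehicle and -0.42 between the compounds. Cox7b, a small accessory subunit, read 10934, 13726 and 13163 in the same order, or -0.27 and 0.06. Cox7c, another small subunit, was at -0.07 and 0.06 on its brightest probe and at -0.36 and -0.09 on its other probe, 8 from the edge. Cox5a, a matrix-side subunit, was the highest with calcitriol, at 32849 against 28340 with calcidiol and 26515 with vehicle, a difference of 0.31 from vehicle and of 0.21 from calcidiol, from a spot 4 from the edge. Cox8b, Cox8c and Cox7b2, forms known from muscle or testis, were detected on none of the arrays, and Cox5b was not analysed here.

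**Figure D3:**
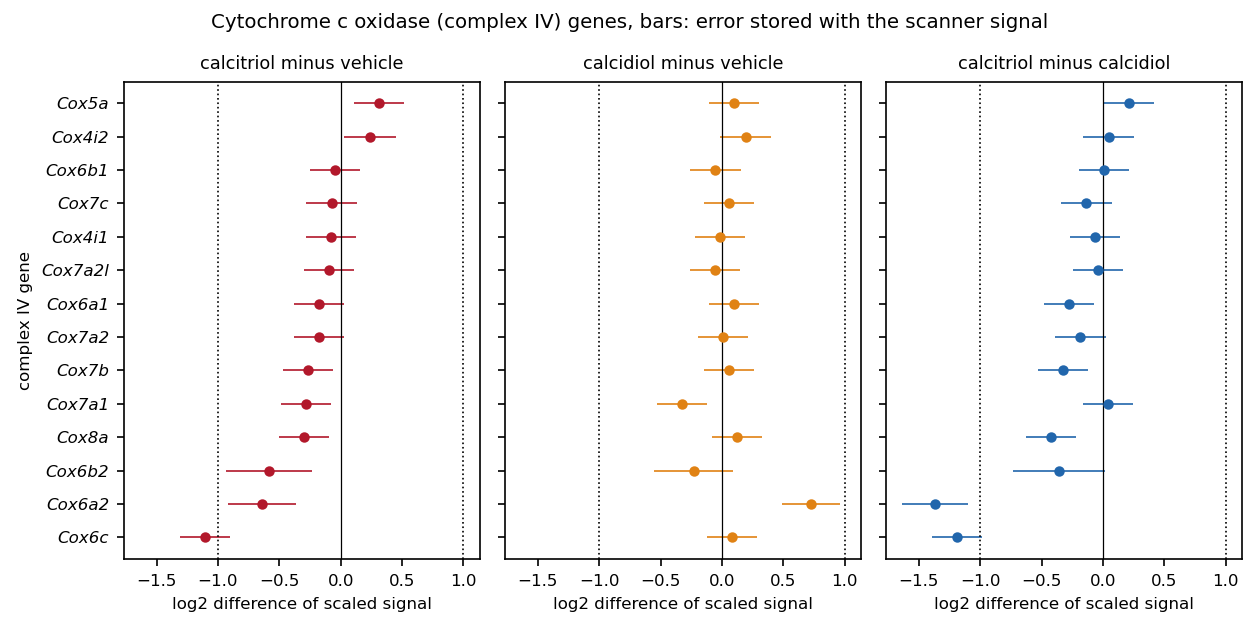
Log2 difference of scaled signal (x axis) for the 14 measured complex IV genes (y axis, ordered by the first panel) in calcitriol minus vehicle, calcidiol minus vehicle and calcitriol minus calcidiol. Bars are the error stored with the scanner signals, not a spread between cultures, and dotted lines mark 2-fold. In the first panel 12 genes lie below 0 (85.7%, beside 50.8% of all genes), with Cox6c at -1.11.

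Complex V makes ATP. Its 18 genes, which by name include the pseudogene Atp5c1-ps and the genes now named Dmac2l (Atp5s) and Dmac2 (Atp5sl) that are not subunits, had medians of -0.03 with calcitriol, 0.006 with calcidiol and -0.03 in calcitriol minus calcidiol. None was 1.5-fold apart in any comparison, beside the shares of all genes given above. Atp5a1 and Atp5b encode the alpha and beta subunits that form the catalytic head. Atp5a1 read 23100 with calcitriol, 25205 with calcidiol and 20992 with vehicle, and was the highest of complex V with calcidiol, at 0.26, although its other probe was at -0.23 there. Atp5b read 27313, 29536 and 28459 in the same order on its brightest probe, within 0.12 of 0 in all comparisons. Against vehicle its other probes were at -0.07 and -0.22 with calcitriol, and both at -0.10 with calcidiol, where the brightest was at 0.05.

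Atp5e, the epsilon subunit of the rotor stalk, was the highest of complex V with calcitriol. It read 18672 with calcitriol, 13888 with calcidiol and 14940 with vehicle, or 0.32 against vehicle and 0.43 against calcidiol. The calcitriol array alone was high, and the spot lies 4 from the edge, where 37 neighbours had a median of 0.07 for calcitriol minus vehicle and of 0.18 for calcitriol minus calcidiol. Atp5k, the subunit e gene, was the lowest with calcitriol, at -0.21 against vehicle and -0.28 against calcidiol, from a spot 2 from the edge, and its other probe, 63 from the edge, was at 0.02 and -0.05. The factor B gene Atp5s was dim and the lowest with calcidiol, at 41.5 against 52.2 with vehicle, or -0.33. Besides the genes named here and Atp5h, 7 subunit genes (Atp5c1, Atp5d, Atp5f1, Atp5j, Atp5j2, Atp5l and Atp5o) lay between -0.12 and 0.25 with calcitriol and between -0.13 and 0.12 with calcidiol.

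Atp5g1, Atp5g2 and Atp5g3 encode the same c-ring protein of the membrane rotor. Against vehicle, Atp5g1 was at -0.14 with calcitriol and -0.10 with calcidiol, and Atp5g3 at -0.16 and 0.0004, on their brightest probes. Other Atp5g1 probes were at 4.4e-05 and 0.01 with calcitriol and at -0.25 and -0.05 with calcidiol. The other, dimmer Atp5g3 probe was at 0.17 with calcitriol and -0.06 with calcidiol. The Atp5g2 probe was printed 10 times on each array, which gives the only member with a measured technical spread. It averaged 55810 ± 4764 with calcitriol, 52788 ± 2257 with calcidiol and 54030 ± 2697 with vehicle (SD over 10 spots of 1 array). The spots of the 3 arrays overlapped. The spot-wise difference was 0.04 ± 0.11 for calcitriol minus vehicle, -0.03 ± 0.06 for calcidiol minus vehicle and 0.08 ± 0.11 for calcitriol minus calcidiol. Of 10 spots, 7, 4 and 7 were above 0 in the same order, and for calcitriol minus vehicle single spots ran from -0.06 to 0.35.

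**Figure D4:**
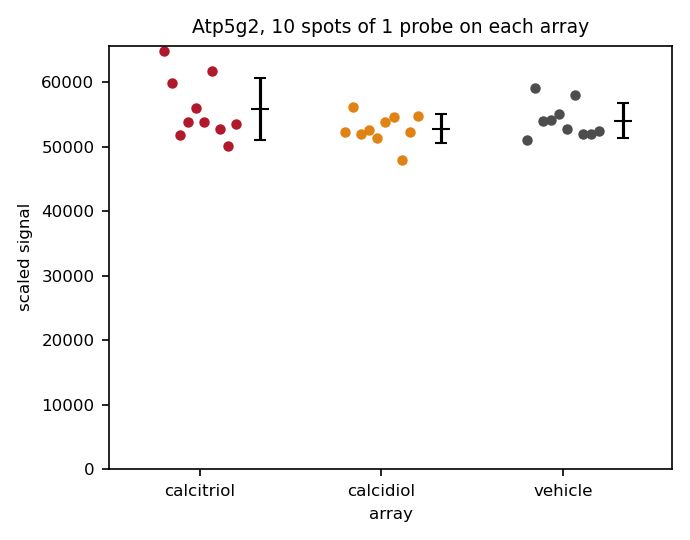
Scaled signal (y axis, linear from 0) of the 10 spots of the Atp5g2 probe on the calcitriol, calcidiol and vehicle arrays (x axis), with mean and SD over spots in black. The 3 sets of spots overlap, and the highest calcitriol spot, at 64827, lies above the others.

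Genes with several probes show how far a second reading departs from the first. Between calcitriol and vehicle, 39 other probes of 32 genes could be compared, and 23 of them were within 0.2 of the brightest probe, with a median gap of 0.149. Between calcidiol and vehicle 29 of 37 were within 0.2, with a median gap of 0.102, and between calcitriol and calcidiol 17 of 38, with a median gap of 0.227. These median gaps exceed the median sizes of the members' own differences, 0.11, 0.069 and 0.13 in the same order. The 2 sets differ, because the sizes are those of the brightest probes of all 90 measured members. A gap holds the error of both probes, and several of the other probes were dim. Against vehicle the farthest was Atp5h, the subunit d gene. Its brightest probe read 17136 with calcitriol, 16918 with calcidiol and 17671 with vehicle, whereas its other probe, in the outermost row, read 11725, 23284 and 6450 in the same order, or 0.86 and 1.85 against vehicle. In calcitriol minus calcidiol the farthest was Ndufb2, an accessory complex I subunit, at -0.28 on its brightest probe and 0.85 on a dim one that read 60.2 with calcitriol and 33.4 with calcidiol. Of the genes past 1.5-fold, Cox6c, Cox6a2 and Cox6b2 had 1 probe each and the other Ndufv2 probe was below detection, so none of these differences has a second reading.

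**Figure D5:**
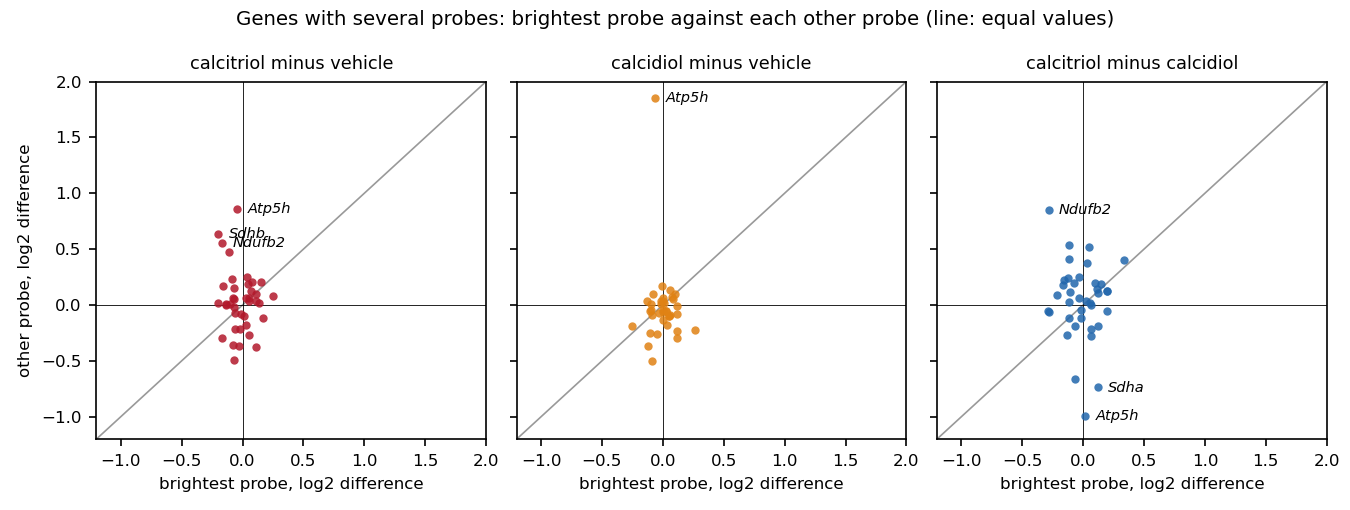
Log2 difference of each other detected probe (y axis) against that of the brightest probe of the same gene (x axis) for calcitriol minus vehicle, calcidiol minus vehicle and calcitriol minus calcidiol, with the line of equal values in grey. Points farther than 0.7 from the line are named, and Atp5h stands at 1.85 on the other probe in the second panel.

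The mitochondrially encoded subunits and other mitochondrial genes give the context. The 10 measured genes of mitochondrial DNA had medians of 0.03 with calcitriol and 0.07 with calcidiol against vehicle and of -0.07 in calcitriol minus calcidiol. None of the 10 was 1.5-fold apart, beside the shares of all genes given above. Against vehicle, ND4L, a complex I subunit, was the highest with calcitriol, at 0.27, and ND6, another, was the lowest, at -0.32. CYTB, cytochrome b of complex III, was the highest with calcidiol, at 0.30, and COX1, the catalytic core of complex IV, was the lowest, at -0.22. CYTB and COX1 were also the lowest and the highest in calcitriol minus calcidiol, at -0.28 and 0.25. The COX1 spot lies 4 and the CYTB spot 7 from the array edge.

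Genes that regulate mitochondrial biogenesis were near 0 as well. The 14 measured had medians of 0.06 with calcitriol, 0.05 with calcidiol and 0.05 between the compounds. None of the 14 was 1.5-fold apart, beside the same shares of all genes. Peo1, the mitochondrial DNA helicase Twinkle, was the highest with calcitriol, at 0.46, and Ppargc1a, the coactivator PGC-1 alpha, was the lowest with both hormones, at -0.22 with calcitriol and -0.27 with calcidiol. Tfb1m, a methyltransferase of mitochondrial ribosomal RNA, was the highest with calcidiol, at 0.24. Tfam, which packages mitochondrial DNA and starts its transcription, was the highest in calcitriol minus calcidiol, at 0.39, and Ppargc1b, a related coactivator, the lowest, at -0.34. Nrf1, whose motif is printed above, was at 0.25 with calcitriol and -0.03 with calcidiol against vehicle.

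Of the 24 measured assembly factors of complexes II to V, 7 were below 0 with calcitriol, with a median of 0.09, and 14 with calcidiol, with a median of -0.03. Among all genes 50.8% and 52.3% were below 0 in the same order. The median of calcitriol minus calcidiol was 0.15. Sdhaf1, a complex II assembly factor, was at least 1.5-fold higher with calcitriol than with vehicle (0.60), and was also the highest against calcidiol, at 0.57. Surf1, an assembly factor of complex IV, was the lowest with calcitriol, at -0.33. Cox16, also for complex IV, was the highest with calcidiol, at 0.34, and Cox11, a copper insertion factor, the lowest, at -0.28. Cox17, the copper chaperone of complex IV, was the lowest in calcitriol minus calcidiol, at -0.41.

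The 16 measured genes of the tricarboxylic acid cycle and pyruvate dehydrogenase had medians of 0.08 with calcitriol, 0.007 with calcidiol and 0.10 between the compounds. Suclg2, a succinyl-CoA ligase subunit, was the highest with calcitriol, at 0.56 against vehicle and 0.51 against calcidiol. Sucla2, another subunit of that ligase, was detected on none of the arrays. Idh2, the NADP-linked isocitrate dehydrogenase, was the lowest, at -0.26 and -0.24. With calcidiol, Cs, citrate synthase, was the highest, at 0.13, and Idh3g, an NAD-linked isocitrate dehydrogenase subunit, the lowest, at -0.27. The 18 measured carrier, import and antioxidant genes had medians of 0.10, 0.05 and 0.07 in calcitriol minus vehicle, calcidiol minus vehicle and calcitriol minus calcidiol. Tomm20, an outer membrane import receptor, was the highest of them with calcitriol, at 0.28 against vehicle and 0.38 against calcidiol. Ucp2, an inner membrane carrier, was the lowest against vehicle, at -0.39 with calcitriol and -0.26 with calcidiol. Hspa9, the matrix chaperone that drives import, was the highest with calcidiol, at 0.17, and the lowest in calcitriol minus calcidiol, at -0.18. No gene of these lists was 2-fold apart in any comparison. Of all genes, 0.966% were 2-fold higher and 1.63% lower in calcitriol minus vehicle. The shares were 0.852% and 0.144% in calcidiol minus vehicle, and 0.466% and 1.4% in calcitriol minus calcidiol. In lists of this size such counts say little. With calcitriol the medians of all 5 lists were above 0 and those of complexes I to V below it, but with arrays centred on their medians each complex except IV was at or above 0, and whether the lists differ was not tested.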

How the data were processed

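Total RNA of each culture was amplified, labelled with Cy3 and hybridised to a 1-colour Agilent mouse array. The deposited scanner files hold processed spot intensity on a linear scale, with probe coordinates on mm9. They were made with Agilent Feature Extraction, version 10.7.1.1 per the file headers and 9.5.1.1 per the submitters' processing notes. The deposited value table, also an intensity, was used as an alternative only.

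Controls and any spot flagged as an outlier on 1 of the arrays were left out (1941 of 59305 non-control spots, 4 of the 156 member spots), and no spot was saturated. Signals were divided by each array's 75th percentile (380 for calcitriol, 401 for calcidiol, 371 for vehicle). A difference needed a probe well above background on both arrays, which 49.9%, 49.7% and 51.0% of probes were on the calcitriol, calcidiol and vehicle arrays. Of the 94 members, 88 were matched by accession to a RefSeq table. Coordinates are those of the probe. Neighbouring spots are those within 5 rows and columns. R 4.3.3 with limma 3.58.1 gave the normalisations, and Python 3.11.15 with numpy 2.4.6, pandas 2.3.3 and matplotlib 3.10.9 the rest. Counting past a fold threshold was run on simulated data with changes well past the threshold. This checks the counting step only, and not changes near the threshold or dim probes.

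The members, the lists and the rule for naming genes were chosen with earlier results of these data known. Genes were named when at least 1.5-fold apart, when highest or lowest in their complex or list in a comparison, when not detected on any array, or from a fixed set of core subunits and isoform pairs. Printed besides these, and chosen after their values were seen, were Ndufa2, Uqcrq, Cox7b, Nrf1 and the other probes of Atp5h and Ndufb2. The same holds for the other probes of Uqcrb, Ndufab1, Cox7c, Atp5b, Atp5g1, Atp5g3, Ndufaf5, Ndufaf6 and Ndufaf7. With 1 array in each group there was no test. Alternatives were other normalisations, an offset of 32, other filters on dim or outlier spots, a mean of all probes of a gene, the value table, other fold thresholds and leaving out the array edge.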

Additional observations from a re-analysis of the deposited data

How the results depend on the processing

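No paired analysis was possible because each group had 1 array, and no replicate could be left out. Centring on the array median moved the members' median to 0.066 for calcitriol minus vehicle and 0.15 for calcitriol minus calcidiol. It left 0 members 2-fold lower between calcitriol and vehicle, where 1.1% of all genes were. It put 27, 68 and 18 members (30%, 75.6% and 20%) below 0 for calcitriol minus vehicle, calcidiol minus vehicle and calcitriol minus calcidiol, beside 33.03%, 65.4% and 24.6% of all genes. Normexp background correction with quantile normalisation put 64 (71.1%) below 0 for calcidiol minus vehicle, beside 55.2% of all genes. The count 2-fold lower for calcitriol minus calcidiol became 1 with that correction (0.775% of all genes) and with an offset of 32 (0.684%). It was also 1 without genes below the 25th or 75th percentile of signal (1.04% and 0.847% of all genes), and without the outermost 6 or 24 rows and columns (1.04% and 0.855%). Without the outermost 6 or 24 rows and columns 0 members were 2-fold lower between calcitriol and vehicle, beside 1.41% and 1.23% of all genes. Leaving out the outermost 24, which keeps 55 members, put 33, 17 and 33 (60%, 30.9% and 60%) below 0 in the same order of comparisons, beside 51.2%, 49.0% and 52.0% of all genes. That alternative and the filter at the 75th percentile were chosen after seeing the data. With a threshold of 1.5-fold, 4 members were lower with calcitriol (6.26% of all genes) and 1 was higher with calcidiol (2.84%) against vehicle. With 3-fold 0 members were lower in calcitriol minus vehicle or calcitriol minus calcidiol, and the share of all genes was not counted there. Centring shifts every difference of a comparison by 1 constant, and it took Cox6c from -1.11 to -0.98 between calcitriol and vehicle. In calcitriol minus calcidiol, the gene no longer counted was Cox6a2 with normexp, the offset and the signal filters, and Cox6c without the array edge. Fewer genes were measured under the filters, and other reasons for these changes were not tested. Of 44 named members, 24, 29 and 24 kept 1 sign in calcitriol minus vehicle, calcidiol minus vehicle and calcitriol minus calcidiol. This counts only the settings that measured the gene, and a value of 0 was not taken as a change. The other 20, 15 and 20 changed sign under at least 1 setting, centring included. Dim probes, such as those of Cox6a2 and Cox6b2, limit what their folds can show.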
